A study of Mus musculus with 2 samples.

Results

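The cells described here were the stromal fibroblasts and peritubular cells of the mouse testis, found as 84 of 12768 cell barcodes in single-cell RNA sequencing of 1 WT and 1 KO library. A barcode was taken when it held a unique molecular identifier (UMI, 1 counted RNA molecule) for at least 3 of Dcn, Col1a1, Col1a2, Col3a1, Pdgfra, Acta2 and Myh11. Barcodes were left out when Insl3, Cyp17a1, Hsd3b1 and Cyp11a1 of Leydig cells reached 40 UMIs per 10000, when 4 of Cst9, Cst12, Cldn11, Defb19, Defb36, Rhox8 and Aard of Sertoli cells were found, or when 3 of C1qa, C1qb, C1qc, Pf4, Csf1r and Adgre1 of macrophages were found. The rule gave 14 WT and 70 KO barcodes, which are called members below. Both libraries came from dissociated testis of C57BL/6 mice that were 12 weeks old, and the KO mice carried the genotype Alkbh5-/-, a homozygous loss of the gene for the RNA demethylase ALKBH5. The study dissected testes of 3 mice per genotype but also speaks of 1 mouse each, so whether a library held pooled animals is not settled. With 1 library per genotype no test between genotypes was possible, and every interval given is a 95% interval that covers counting error only.

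Stromal fibroblasts lie between the seminiferous tubules and make collagens and small proteoglycans such as decorin, the product of Dcn. Peritubular myoid cells form a thin contractile sheath around each tubule, carry smooth muscle actin (Acta2) and smooth muscle myosin (Myh11), lay down the basement membrane with Sertoli cells and propel sperm along the tubule. Platelet-derived growth factor, insulin-like growth factors, TGF beta and retinoids are known signals between these cells, Leydig cells and the germ cells.

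Members had a median of 6453.5 UMIs in WT and 6917.5 in KO, below the library medians of 10905.5 and 9117.5. Their summed depth was 135896 UMIs in WT and 631130 in KO, so that 1 UMI in the WT sum weighed more than 1 in the KO sum. The targeted gene Alkbh5 gave 607 UMIs over all WT barcodes against 5 over all KO barcodes. Its 3 UMIs in WT members against 0 in KO members are at or under the limit of 3 counts in both and give no fold. The libraries shared 45 barcode sequences, and 0 of them were members in both libraries.

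Most members were decorin-rich barcodes and few were contractile. Dcn was found in 13 of 14 WT and 68 of 70 KO members, with a lowest, median and highest level of 0, 57.1 and 184 UMIs per 10000 in WT and 0, 25.2 and 219 in KO. It made up 88.3% of the UMIs of Dcn, Col1a1, Col1a2, Col3a1 and Pdgfra in WT and 88.2% in KO. Col1a1, a chain of the main fibrillar collagen, was found in only 4 WT and 14 KO members, so this defining marker was close to absent. Among members, 7 WT and 45 KO barcodes passed with exactly 3 of the 7 genes, 6 and 22 with 4, and 1 and 3 with 5. The lowest summed level of the 7 genes was 23.3 UMIs per 10000 in WT and 2.66 in KO. Just outside the rule, the barcodes with 2 of the 7 genes that met the exclusions numbered 21 in WT and 60 in KO. Their median levels were 2.12 and 5.13 UMIs per 10000 and their highest 347 and 282. At least 10 Dcn UMIs were held by 4 WT and 13 KO barcodes that met the exclusions but were not members. Another 4 WT and 52 KO barcodes had at least 3 of the 7 genes but reached the Leydig limit.

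Only 5 members had more UMIs of Acta2 and Myh11 than of the other 5 genes, 1 of 14 in WT and 4 of 70 in KO. These are called the contractile side, and the remaining 79 the matrix side. Acta2 counts in the WT barcode were 48 UMIs, and in the KO barcodes 45, 116, 183 and 192 UMIs. Myh11 counts were 8 UMIs in WT and 13, 14, 21 and 25 in KO. On the matrix side 13 of 13 WT and 63 of 66 KO barcodes had no UMI of either gene, and no member lay near equal sums.

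**Figure D1:**
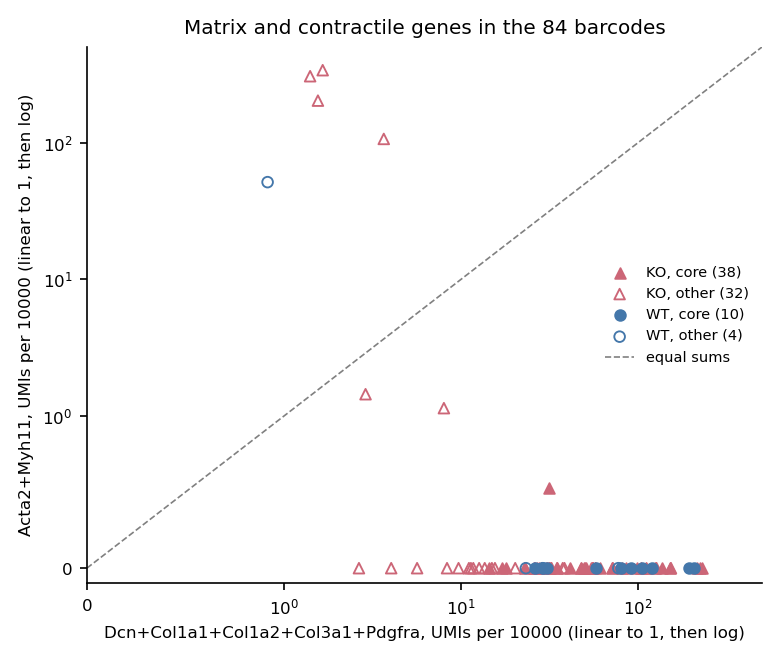
Each point is 1 member barcode, with the 5 matrix genes on the x axis and Acta2 plus Myh11 on the y axis, in UMIs per 10000. Filled points are the core members defined below. The 5 contractile barcodes stand above the dashed line, and nearly all others lie at 0 on the y axis.

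The rule missed most contractile barcodes of the testis. Among barcodes that met the exclusions but not the count of 3 genes, 2 in WT and 13 in KO had at least 10 UMIs of Acta2 and Myh11, against 1 and 4 members. In the sum of these 15, Acta2 stood at 7745 UMIs per 1000000, Myh11 at 1293, Myl9 at 4949 and Tpm2 at 2145. Dcn, Col1a1, Col1a2, Col3a1 and Pdgfra were at 0, which the choice fixes for any barcode that holds both Acta2 and Myh11. The 15 fibroblast markers of a wider list that the rule did not use all had a UMI in members, and summed to 43.0 UMIs per 10000 in WT and 26.9 in KO members, against 1.65 and 3.13 in the Leydig class. The 15 myoid and smooth muscle markers outside the rule also all had a UMI, at 15.8 and 25.2 UMIs per 10000. Members were thus mainly barcodes with fibroblast markers, and few had peritubular ones as their main feature.

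Several KO members carried RNA typical of other cells, and the part of such RNA in the results was not tested. On the matrix side 0 WT and 12 KO barcodes had fewer than 10 Dcn UMIs. The Leydig genes of the rule lay between 10 and 40 UMIs per 10000 in 1 WT and 13 KO members. The spermatid genes Prm1, Prm2, Tnp1 and Tnp2 took over 5% of the UMIs in 3 WT and 11 KO members, and Prm1, which packs DNA in spermatids, reached 1227 UMIs per 10000 in WT and 1550 in KO. Dcn stood at 6.82 CPM (UMIs per 1000000) in the remaining barcodes, mostly germ cells. Of the 14 macrophage markers 9 had a UMI in any member, and their sum was 0.221 UMIs per 10000 in WT and 0.602 in KO. C1qa, C1qc, Pf4, Adgre1 and Tyrobp were at 0, and all but Tyrobp are genes by which the rule left barcodes out. The macrophage list, like the Sertoli list that follows, holds such genes, so the choice of members itself lowers these sums. Summed levels in WT and KO members were 1.32 and 2.28 UMIs per 10000 for 10 endothelial markers, 1.18 and 2.58 for 15 pericyte markers and 11.0 and 9.74 for 14 Sertoli markers. They were 0.221 and 0.507 for 12 lymphoid, 0.0736 and 0.269 for 9 mesothelial and 1.62 and 1.01 for 6 glial markers, with Cd3e, Cd3g, Msln, Krt19 and Sox10 at 0. Because of these barcodes, the comparisons are also given for 10 WT and 38 KO core members. Core members lay on the matrix side, had at least 10 Dcn UMIs, at most 5% of UMIs from those 4 spermatid genes and under 10 UMIs per 10000 of the Leydig genes, limits that were set after the barcodes had been seen.

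The share of members was higher in the KO library. Members were 0.243% of 5756 WT barcodes, with an interval of 0.133 to 0.408, and 0.998% of 7012 KO barcodes, with an interval of 0.779 to 1.26. Members were thus 4.10 times as frequent among KO barcodes (2.29 to 7.89). The ratio was 4.17 after each barcode had been thinned to 5000 UMIs, which left out 0 WT and 241 KO barcodes and kept 10 and 49 members. Among the 182 WT and 1802 KO barcodes of members, Leydig, Sertoli and macrophage classes together, the order turned round, with members at 7.69% in WT but 3.88% in KO, so that the KO share was 0.505 times that of WT (0.282 to 0.971). The Leydig class went from 76 to 1081 barcodes, a share ratio of 11.7, and the Sertoli class from 73 to 577, a ratio of 6.49. Macrophages went from 19 to 74, a ratio of 3.20 whose interval of 1.91 to 5.61 overlapped that of members. These are shares of captured barcodes and not numbers of cells in the tissue.

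The 20 genes highest in members relative to all other barcodes held Dcn and Col1a2 of the rule and 18 others, among them matrix genes, Lmod1 of smooth muscle and S100b of glia. Levels in CPM below are over the summed barcodes of both genotypes. They come from the 3′ ends of transcripts and need no scaling by length, and since the members were chosen by RNA of the same barcodes they are a description with no test. Mgp, the matrix Gla protein that inhibits calcification, stood at 969 CPM in members and was 350 times its level in the other barcodes. It was found in 14 of 14 WT and 56 of 70 KO members, at a lowest, median and highest level of 0.915, 9.68 and 33.3 UMIs per 10000 in WT and 0, 4.91 and 98.8 in KO. Adamts5, a protease that cleaves aggrecan, was 329 times higher at 336, and Cyp26b1, which breaks down retinoic acid, 299 times higher at 211. Mfap4, a microfibril protein, was 295 times higher at 82.1. Fhl2, a LIM domain cofactor of muscle and fibroblasts, was 278 times higher at 370, and Fmo2, an oxygenase, 263 times higher at 71.7. Apod, a lipid carrier, was 208 times higher at 117, although 3 WT and 21 KO members held it and 1 KO barcode gave 33.3% of its KO UMIs. The calcium-binding S100a6 was 202 times higher at 583 and the actin-severing Gsn 186 times higher at 1147. Dcn itself, a gene of the rule, was 197 times higher at 3940.

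**Figure D2:**
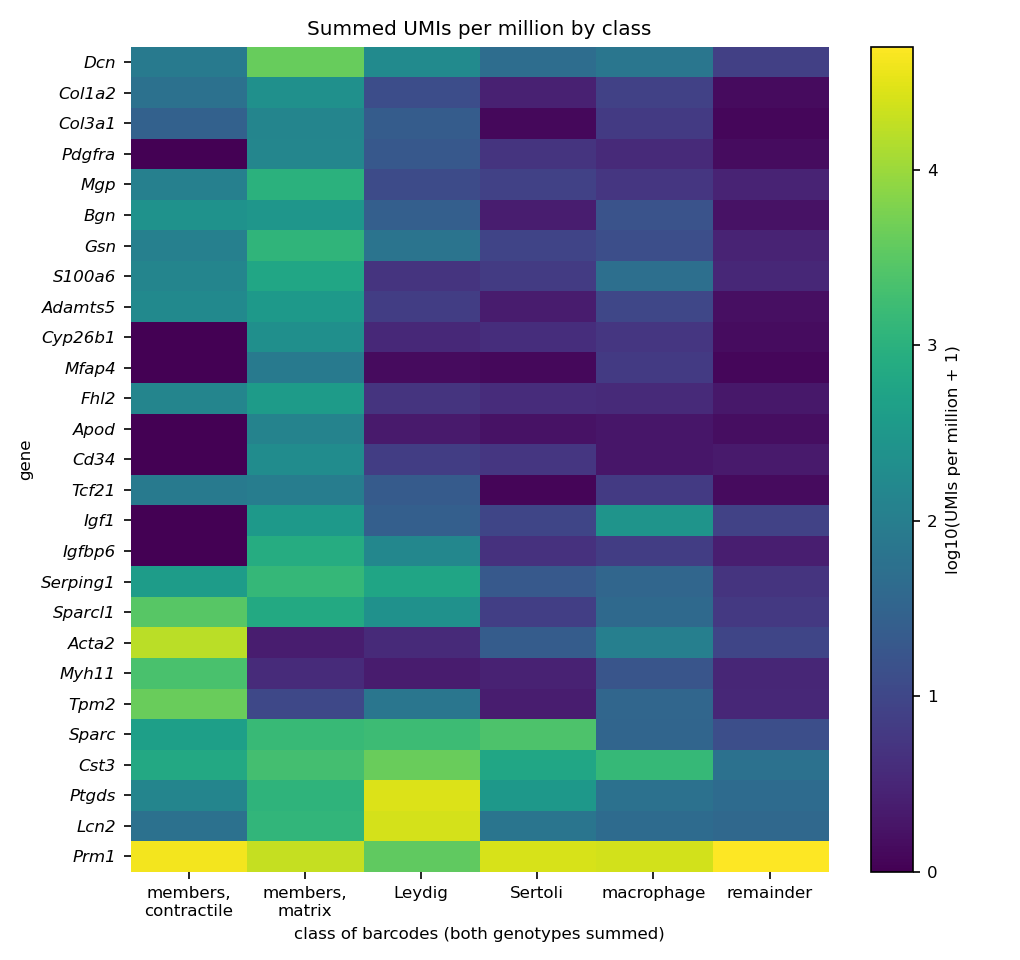
The colour gives log10 of summed CPM plus 1 for each gene (y axis) in 6 classes of barcodes (x axis), both genotypes together. Dcn, Mgp and Gsn are brightest on the matrix side, Acta2, Myh11 and Tpm2 on the contractile side, Ptgds and Lcn2 in the Leydig class, and Prm1 is seen in every class.

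Against the somatic class nearest to them in tissue, the Leydig class, members had higher levels of fibroblast genes, while several secreted products were as high or higher there. Mgp was at 969 in members, 10.8 in the Leydig class, 7.06 in the Sertoli class and 4.47 in the macrophage class. Igf1, a growth factor for Leydig and Sertoli cells, was at 325 in members and 268 in macrophages but at 25.6 in the Leydig class. Tcf21, a transcription factor of interstitial progenitors, stood at 97.8 in members against 21.6 in the Leydig class and 0.138 in the Sertoli class. Sparc, a collagen-binding matricellular protein, did not set members apart, with 1402 in members, 1656 in the Leydig class and 2475 in the Sertoli class. The protease inhibitor Cst3 was higher in the Leydig class, at 4187 against 1916 in members.

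Among members the contractile and matrix sides held different genes outside the rule. On the contractile side Myl9, a light chain of smooth muscle myosin, was at 7859 CPM against 131 on the matrix side, and Mylk, the kinase that activates it, at 4682 against 104. The tropomyosins Tpm2 and Tpm1 were at 4320 and 2843 against 9.57 and 93. Des, the muscle intermediate filament, was at 1198 against 15.0, and Crip1, a LIM domain protein, at 3372 against 171. On the matrix side Igf1, Igfbp6, Cyp26b1, Cd34 and Apod were detected while all 5 contractile barcodes had 0 UMIs of each. The 5 barcodes held only 5451 to 10893 UMIs each, so 0 UMIs of a low gene such as Apod does not show its absence. Igfbp6, which binds IGF-II, was at 803 on the matrix side. The matrix side also led in Vcam1, an adhesion molecule, at 756 against 27.9, and Lcn2, an iron-carrier binding protein, at 1267 against 55.7, both of which were higher still in the Leydig class, at 3379 and 24653. Notch3, a pericyte marker, was at 0 in all members.

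Proximal promoters were searched for the letters of 3 motifs in the 250 bases before each start, in RefSeq sequences of GRCm38.p6. The CArG box is the site of serum response factor, which drives muscle and immediate early genes, the NF-kappaB site is bound by the factor of the same name in inflammation, and the AP-1 site, searched as TGANTCA, is bound by FOS and JUN dimers. Both strands were read, no overlap between motifs was removed, and the shares over all 32851 promoters were 1.47%, 5.0% and 6.75%. Of the 20 genes with the largest fold in members, 14 had 18 promoters in the table, and CArG boxes stood in 2 of them, both of Fhl2, AP-1 sites in 2, of Entpd2 and Fgl2, and NF-kappaB sites in 0. Of 16 immediate early genes that were higher in KO, described below, 12 had 13 promoters, with a CArG box in that of Zfp36, an NF-kappaB site in that of Fosb and no AP-1 site. All 6 inflammatory genes that were higher in KO had together 8 promoters, and an NF-kappaB site stood in 5, of Cxcl1, H2-K1, Irf1 and Nfkbia, and the other motifs in 0. In the smooth muscle list, 25 genes had 29 promoters, with a CArG box in 4, an NF-kappaB site in 2 and an AP-1 site in 2. A match describes letters and is not evidence of binding.

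Sequences are shown for 1 member gene with a CArG box, 1 immediate early gene and 2 inflammatory genes, 5′ to 3′ on the strand of the gene, with the motif in capitals. They end at the base before the start, at chr1:43163962-43164211 on the minus strand for Fhl2, chr7:28379229-28379478 on the minus strand for Zfp36, chr5:90890995-90891244 on the plus strand for Cxcl1 and chr11:53769764-53770013 on the plus strand for Irf1. The motifs begin 31, 58, 71 and 13 bases before the start.
Fhl2: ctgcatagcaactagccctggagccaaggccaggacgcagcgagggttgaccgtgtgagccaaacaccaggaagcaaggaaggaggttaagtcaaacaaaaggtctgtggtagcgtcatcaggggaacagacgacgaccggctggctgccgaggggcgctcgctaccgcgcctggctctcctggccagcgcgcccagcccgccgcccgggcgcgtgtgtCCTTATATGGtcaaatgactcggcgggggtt
Zfp36: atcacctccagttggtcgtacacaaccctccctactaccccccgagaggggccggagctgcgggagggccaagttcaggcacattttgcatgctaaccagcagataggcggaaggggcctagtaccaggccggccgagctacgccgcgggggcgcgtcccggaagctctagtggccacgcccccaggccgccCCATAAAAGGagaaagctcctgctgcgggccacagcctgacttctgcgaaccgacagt
Cxcl1: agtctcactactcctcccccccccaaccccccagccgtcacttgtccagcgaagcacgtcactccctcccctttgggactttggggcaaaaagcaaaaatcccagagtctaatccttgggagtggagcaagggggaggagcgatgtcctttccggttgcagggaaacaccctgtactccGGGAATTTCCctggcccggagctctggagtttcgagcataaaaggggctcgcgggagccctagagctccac
Irf1: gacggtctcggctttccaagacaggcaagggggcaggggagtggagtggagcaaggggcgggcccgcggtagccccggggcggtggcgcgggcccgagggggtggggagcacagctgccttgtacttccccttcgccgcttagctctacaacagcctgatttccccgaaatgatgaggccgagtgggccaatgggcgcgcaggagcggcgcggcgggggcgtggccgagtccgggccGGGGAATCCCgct

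Between genotypes, 2619 genes had at least 50 UMIs in the summed members. Of these, 285 were at least 2-fold higher in KO (10.9%) and 117 at least 2-fold lower (4.47%), with a median log2 ratio of 0.05. The 14 WT barcodes weighed on the second count, since only 17 genes stayed 2-fold lower when, for each gene, the barcode with most of its UMIs was left out of the genotype with the higher level. The first count was 262 in that setting. In core members 166 of 1528 genes were higher (10.9%) and 78 lower (5.10%).

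Immediate early genes stood higher in KO in greater number than the genes of any other list, and their list also had the most genes tested. These genes are transcribed within minutes of a stimulus and many also rise during tissue dissociation. Of 33 listed genes 27 had 50 UMIs, and 16 of these were at least 2-fold higher in KO and 0 lower. Over all genes tested 10.9% were higher and 4.47% lower. The list median was 1.26 on the log2 scale. Leydig markers, with 5 of 8 higher, and spermatogonia and spermatocyte markers, with 3 of 5, had larger medians of 1.43 and 1.82. In core members the counts for the immediate early list were 16 and 0 of 22 and its median 1.34. Its median was 0.57 in members with at least 4 of the 7 rule genes, 7 in WT and 25 in KO. Fos, a partner of JUN in AP-1, was at 1545 CPM in WT and 3034 in KO, a log2 ratio of 0.97 (0.77 to 1.19), just short of 2-fold. Its lowest, median and highest barcode had 0, 12.0 and 88.6 UMIs per 10000 in WT and 0, 31.6 and 143 in KO. The groups thus overlapped, with the KO median inside the WT range. Fosb was at 184 and 678, a log2 ratio of 1.88 (1.30 to 2.53), and was found in 6 of 14 WT and 56 of 70 KO members. Egr1, a zinc finger factor, was at 280 and 730, a log2 ratio of 1.39 (0.91 to 1.90). Zfp36, whose product destabilizes inflammatory mRNAs, was at 250 and 692, a log2 ratio of 1.47 (0.96 to 2.02). Gadd45b, a stress sensor, showed the highest ratio of the list, 2.28 (1.33 to 3.43), at 66.2 and 322. Jun itself was at 957 and 1413, a log2 ratio of 0.56, and Klf2, a flow-responsive factor, at 309 and 344, both under 2-fold.

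Summed over the 33 genes, the lowest, median and highest member had 21.1, 56.3 and 292 UMIs per 10000 in WT and 15.2, 143 and 608 in KO. Of the KO members 57 lay above the WT median and 15 above the highest WT barcode, and 13 lay below the WT median. In core members the medians were 56.3 and 128. The same direction was present in the Leydig class, where 19 of the 27 genes were 2-fold higher in KO and the median log2 ratio was 1.15. Of the 2619 genes tested in members, 115 were 2-fold higher in KO in the Leydig class, with a median log2 ratio of -0.096. For the 33 genes the median Leydig barcode went from 40.7 to 134 UMIs per 10000. The list summed to 21.4 and 56.8 UMIs per 10000 in the Sertoli class, and to 99.6 and 104 in the macrophage class. The difference was thus also present in the Leydig and Sertoli sums, and the macrophage sums were close. Tissue handling was not recorded per library and cannot be told apart from genotype.

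**Figure D3:**
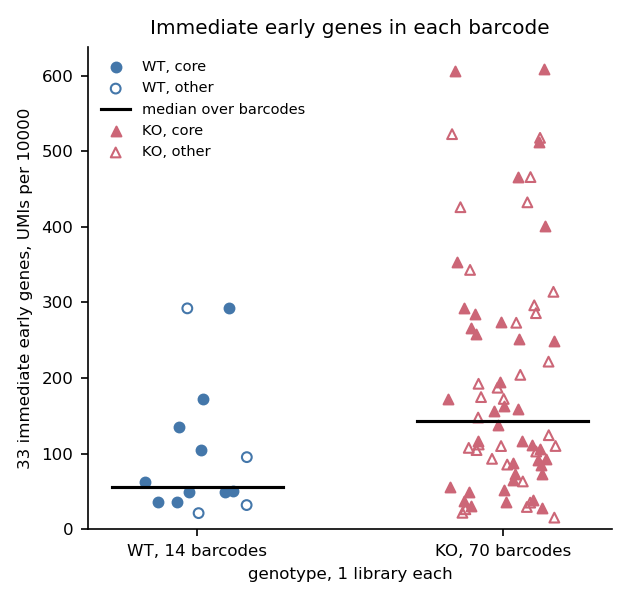
Each point is 1 member barcode, with the genotype on the x axis and the summed UMIs per 10000 of 33 immediate early genes on the y axis. The black lines are medians over barcodes, 56.3 in WT and 143 in KO, and the ranges overlap widely.

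Inflammatory genes split into a few that were much higher in KO and many that were near equal. Of 43 listed genes 16 had 50 UMIs. Of these 6 were at least 2-fold higher in KO and 0 lower, against 10.9% and 4.47% of all genes tested. The list median was 0.12 on the log2 scale. In core members 3 of 10 were higher and 0 lower and the median was -0.13, and it was -0.26 in members with at least 4 of the 7 rule genes. H2-K1 of MHC class I went from a log2 ratio of 1.06 to 0.12 in core members. Cxcl1, a neutrophil chemokine, was at 51.5 in WT and 502 in KO, a log2 ratio of 3.29 (2.23 to 4.61). It rested on 3 WT members, 1 of which gave 71.4% of its 7 UMIs, and on 37 KO members, and the log2 ratio in core members was 1.91. Nfkbia, the inhibitor that NF-kappaB itself induces, was at 51.5 and 345, a log2 ratio of 2.75 (1.68 to 4.08) and 2.64 in core members. Irf1, an interferon response factor, went from 2 UMIs to 93, with a log2 ratio of 3.32 (1.43 to 6.39). Socs3, which dampens cytokine signals and is also counted in the immediate early list, was at 103 and 247, a log2 ratio of 1.26 (0.47 to 2.17). Lcn2 went from 3 UMIs to 925, a log2 ratio of 6.05 (4.50 to 8.33), and 1 KO barcode gave 33.9% of the latter. In core members it had 1 and 26 UMIs, and 664 of the 925 KO UMIs lay in the 12 KO barcodes with fewer than 10 Dcn UMIs. Interferon-induced Ifitm3 was at 552 and 550, B2m of MHC class I at 706 and 745, and the complement protease C1s1 at 147 and 98.2.

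Leydig cell markers moved with these genes. Of 14 markers 8 had 50 UMIs. Of these 5 were 2-fold higher in KO and 0 lower, against 10.9% and 4.47% of all genes tested. The sum of the 14 markers went from 21.1 to 49.0 UMIs per 10000. Ptgds, a prostaglandin D synthase, went from 7 UMIs to 837, a log2 ratio of 4.69 (3.64 to 6.01). Hsd3b6, a steroid dehydrogenase, went from 3 UMIs to 404, a log2 ratio of 4.86 (3.30 to 7.14). In core members Ptgds had 3 and 69 and Hsd3b6 0 and 16, and of the 4 markers with 50 UMIs there 1 was higher and 1 lower, with a median log2 ratio of -0.21. The list holds Insl3, Cyp17a1, Hsd3b1 and Cyp11a1, whose level limits core members, so the choice itself lowers Leydig markers there. The part of Leydig RNA in the inflammatory and other ratios was not tested.

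Among matrix genes more were lower than higher in KO. Of 36 genes for fibrillar collagens and their partners, 9 had 50 UMIs, 0 were 2-fold higher and 3 lower, with a median log2 ratio of -0.49. For this and the other matrix lists, the shares over all genes tested were 10.9% higher and 4.47% lower. Without Col1a1, Col1a2 and Col3a1, which are genes of the rule, 2 of 7 were lower and the median was -0.37. Col3a1, a collagen of loose tissue, was at 228 in WT and 109 in KO, a log2 ratio of -1.06 (-1.69 to -0.40), and its lowest, median and highest barcodes, 0, 1.68 and 13.4 UMIs per 10000 in WT and 0, 0.726 and 10.1 in KO, overlapped. Fbln5, an elastic fibre protein, was at 169 and 77.6, a log2 ratio of -1.12 (-1.87 to -0.34). Mfap4 was at 213 and 53.9, a log2 ratio of -1.99 (-2.74 to -1.22), but 1 WT barcode gave 75.9% of its WT UMIs and without it the ratio was 0.01. Without the top barcode of each gene the median of the list was -0.09. Col1a2 was at 294 and 209, a log2 ratio of -0.49 (-1.01 to 0.06). The 6 proteoglycan and matricellular genes with 50 UMIs included none past 2-fold, with a median of -0.32. Dcn itself, a gene of the rule, was at 4864 and 3741, a log2 ratio of -0.38 (-0.50 to -0.25). The ratio of Dcn was -0.18 in core members and -0.20 without its top barcode, both outside that interval. Mgp was at 1038 and 954. Of 5 basement membrane genes 1 was higher, the laminin Lamb2 at 29.4 and 87.2, a log2 ratio of 1.57 (0.13 to 3.49), and of 7 proteases and inhibitors none was past 2-fold, with the complement inhibitor Serping1 at 1258 and 1293.

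The fibroblast marker list, which shares Dcn, Col1a1, Col1a2, Col3a1 and Pdgfra with the rule, showed 3 of 10 genes at least 2-fold lower and 1 higher in KO, and a list median of -0.44 (log2). Without the rule genes 2 of 6 were lower and 1 higher, with the same median to 2 decimals. Over all genes tested 4.47% were lower and 10.9% higher. The median of the full list was -0.15 without the top barcode of each gene. In core members 3 of 9 genes were lower and 0 higher, with a median of -0.70. Gsn was at 2075 in WT and 948 in KO, a log2 ratio of -1.13 (-1.34 to -0.92), with 0, 9.81 and 123 UMIs per 10000 as the lowest, median and highest barcodes in WT and 0, 3.51 and 132 in KO. Ly6a, a stem cell antigen of adventitial fibroblasts, was at 361 and 155, a log2 ratio of -1.22 (-1.72 to -0.69). Cd34 was at 258 and 170, a log2 ratio of -0.60. The genes lowest in KO over all tested included Htra3, a serine protease that restrains TGF beta, at 699 and 133. Its log2 ratio was -2.39 (-2.83 to -1.95), -2.25 in core members and -2.21 without its top WT barcode, which gave 24.2% of the UMIs. Htra3 was found in 11 of 14 WT and 41 of 70 KO members, at medians of 10.6 and 0.870 UMIs per 10000. S100a6 was at 1082 and 475, a log2 ratio of -1.19, and the selenium-binding Selenbp1 at 971 and 361, a log2 ratio of -1.43. The neutral amino acid transporter Slc38a5 was at 250 and 82.4, a log2 ratio of -1.60.

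Genes at 0 in WT were put at 3 counts and could therefore rank below genes with 1 or 2 WT UMIs, as Stra8 does below. Of the 10 genes with the highest ratios, Lcn2, Hsd3b6, Ptgds and Apoc1 were at their highest in the Leydig class, where Apoc1, an apolipoprotein, reached 4560 CPM against 146 in members. Dazl, Hmgb2, Cks1b and Ddx10 were found in germ cell barcodes as well, with Dazl, an RNA-binding protein of germ cells, at 272 in members and 199 in the remaining barcodes. Gem, a small GTPase, went from 1 UMI to 65, a log2 ratio of 3.81 (1.28 to 9.13) and 3.48 in core members. Serpina3n, a protease inhibitor of the acute phase, went from 1 UMI to 67, a log2 ratio of 3.85 (1.32 to 9.18) and 2.37 in core members. Of the 10 genes with the lowest ratios, Oaz3, Tex38, Sun3, Fam71a, Gpat4 and Lipe had higher levels in the remaining barcodes than in members.

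**Figure D4:**
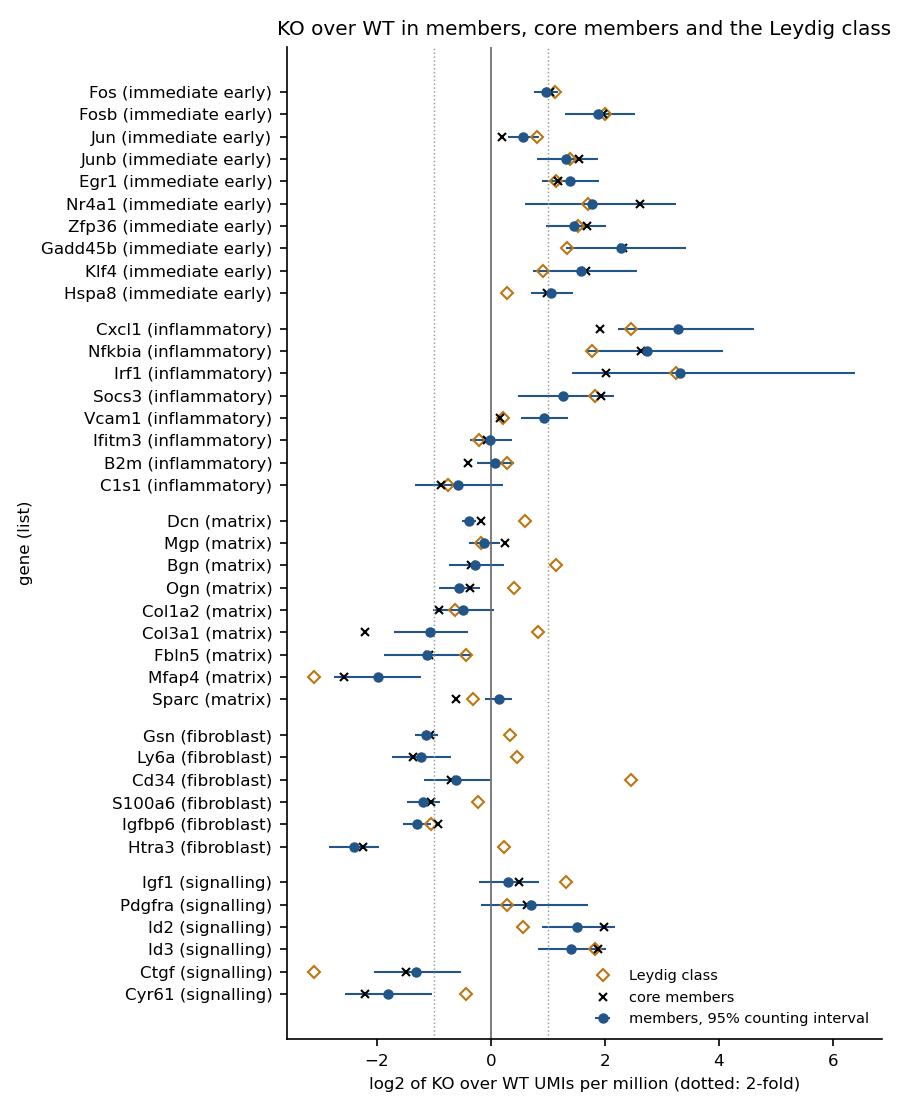
The x axis gives the log2 ratio of KO over WT CPM for 39 genes (y axis) in 5 groups, with 95% counting intervals for members (dots), and values for core members (crosses) and the Leydig class (diamonds). Immediate early genes lie to the right in members and in the Leydig class. Gsn, Ly6a and Htra3 lie to the left in members. Their diamonds lie to the right, but their counting intervals in the Leydig class, which are not drawn, include equal levels in KO and WT.

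Signalling genes of the stroma went both ways. In the TGF beta and BMP list 2 of 6 genes were at least 2-fold higher and 2 lower in KO. For the lists of this paragraph, the shares over all genes tested were 10.9% higher and 4.47% lower. Id2 and Id3, inhibitors of differentiation that BMP induces, were at 169 and 482 and at 199 and 524.5, log2 ratios of 1.51 (0.90 to 2.19) and 1.40 (0.83 to 2.02), and 1.99 and 1.89 in core members. Ctgf and Cyr61, matricellular targets of YAP, were at 177 and 71.3 and at 199 and 57.0, log2 ratios of -1.31 (-2.05 to -0.53) and -1.80 (-2.56 to -1.02), and -0.48 and -1.10 without their top barcodes. Among 7 growth factors and receptors, 1 was higher and 1 lower, and in core members 0 of 6 were higher and 0 lower. Igfbp6 was at 1494 and 608, a log2 ratio of -1.30 (-1.54 to -1.04) and -0.92 in core members, and its Leydig class ratio was -1.05. The receptor Pdgfra, a gene of the rule, was at 88.3 and 144, a log2 ratio of 0.71 (-0.17 to 1.71), and Igf1 at 272 and 336, a log2 ratio of 0.30 (-0.21 to 0.85). Kitl, the ligand of KIT on spermatogonia, went from 6 UMIs to 57, with a log2 ratio of 1.03 (-0.18 to 2.54) and 0.66 in core members. In the steroid and retinoid list 1 of 3 genes was higher and 0 lower, Tcf21 at 51.5 and 108 with a log2 ratio of 1.06 (-0.06 to 2.43), an interval that includes 0, and Aldh1a1, which makes retinoic acid, was at 633 and 570.

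Smooth muscle genes rested in part on 1 WT barcode, which gave all WT UMIs of Acta2 and Myh11 and 112 of the 373 of the other genes of the list. Of 18 genes with 50 UMIs 5 were higher in KO and 1 lower, against 10.9% and 4.47% of all genes tested. The list median was 0.42 (log2). Acta2 was at 353 and 851, a log2 ratio of 1.27, and Myh11 at 58.9 and 119. In KO the 4 contractile barcodes gave nearly all UMIs of both genes. Without the top KO barcode the log2 ratios of Acta2 and Myh11 were 0.65 and 0.44. Without barcodes over 5% spermatid genes, which leaves out the WT barcode, that of Acta2 was 4.78 with WT at the floor of 3 counts. Without these 2 genes of the rule 3 of 16 were higher and 1 lower, with a median of 0.37. In core members, which leave the contractile side out, 4 genes had 50 UMIs, 0 were higher and 2 lower.

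**Figure D5:**
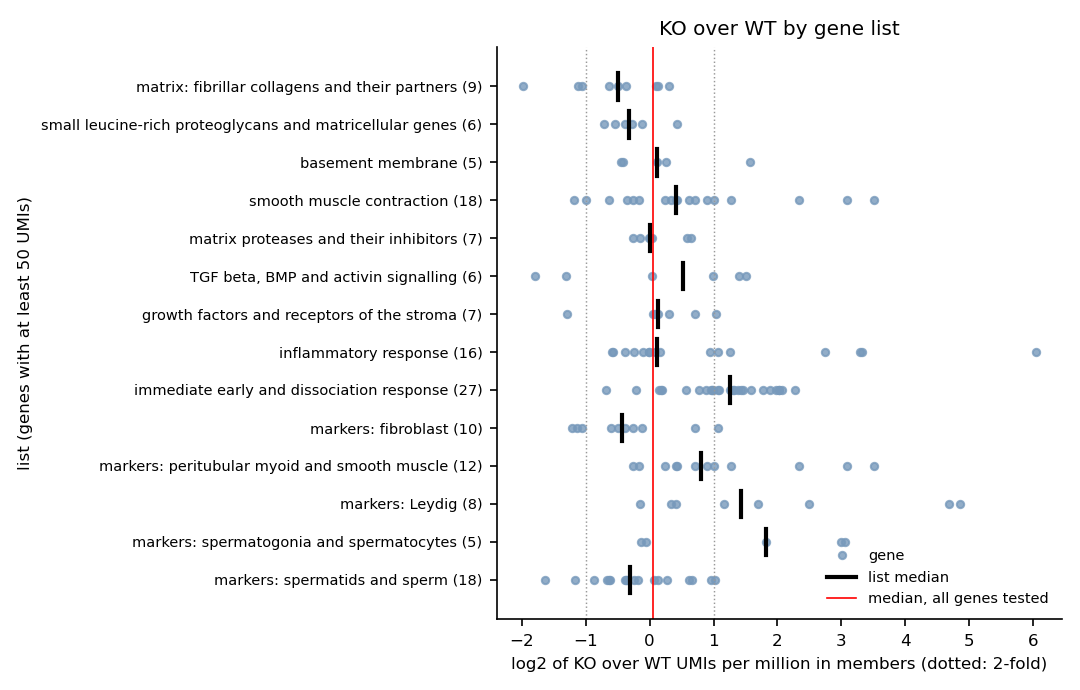
Each dot is the log2 ratio of KO over WT in members (x axis) for 1 gene with at least 50 UMIs, by list (y axis, with the number of genes). Black bars are list medians, from -0.49 for fibrillar collagens and -0.44 for fibroblast markers to 1.26 for immediate early genes, 1.43 for Leydig markers and 1.82 for spermatogonia and spermatocyte markers, and the red line is the median of all genes tested, 0.05.

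Germ cell RNA was present in members of both genotypes. The 18 spermatid and sperm markers summed to 484 UMIs per 10000 in WT members and 439 in KO, and 1 was 2-fold higher and 2 lower. Shares over all genes tested were 10.9% higher and 4.47% lower. Of the 5 spermatogonia and spermatocyte markers with 50 UMIs 3 were higher in KO, and Stra8, a gene of meiotic entry, was at least 7.97-fold higher in KO, with 111 UMIs against 0 and a floor of 3 counts in the WT sum. A single KO barcode gave 41.4% of them. Mitochondrially encoded RNA made up 2.40% of member UMIs in WT and 3.85% in KO, and ribosomal protein RNA 5.35% and 7.67%. Readers and writers of m6A were sparse, and of 21 genes found only 2 had 50 UMIs, Hnrnpa2b1 at 272 and 417 and Hnrnpc at 73.6 and 165, log2 ratios of 0.61 (0.11 to 1.15) and 1.16 (0.23 to 2.27).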

How the data were processed

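The WT and KO testis libraries were deposited as tables of counts, 1 value per gene and barcode. According to the methods, the authors dropped pairs whose read 1 lacked poly T, aligned read 2, assigned it with featureCounts and collapsed each gene's reads in a barcode by UMI. The submitters' notes name STAR 2.5.3a, fastp 1, featureCounts 1.6.2 and Seurat. The symbols are those of mouse, although the methods give GRCh38, and the selection of barcodes is not given in the sources used here. The stated filter of over 500 genes left all barcodes, more than the cell numbers the study states.

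Members were found with the rule in the report. Barcodes meeting the exclusion limits formed the Leydig, Sertoli and macrophage classes, in that order. UMIs were summed per genotype and scaled to 1000000 (CPM) with numpy 2.4.6, pandas 2.3.3 and scipy 1.17.1 under Python 3.11.15. Sums have exact Poisson, shares Clopper-Pearson and log2 ratios exact conditional intervals. A sum of 0 was taken at 3 counts. Genes needed 50 UMIs over both sums, and 2-fold was the size named. The genes named were those of fixed lists and the 10 highest and 10 lowest ratios, the 20 largest folds over other barcodes and 10 genes for each side, with values given for those most relevant to the lists. Members, gene lists and limits were chosen with earlier results of these data known. Scrublet (scanpy 1.11.5, expected rate 0.06) marked doublets (244 WT and 345 KO barcodes, 0 and 5 of them members) and kept. Alternatives are in the closing section. One listed gene is not reported here.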

Additional observations from a re-analysis of the deposited data

Results flagged for a closer look

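Of 175 named genes with 50 UMIs, 64 had log2 ratios of KO over WT with opposite signs in members and in the Leydig class, and in 14 of these both counting intervals excluded 0. The difference between the classes was not tested, since each genotype had 1 library. Higher in the Leydig class of KO but lower in KO members were Dcn (-0.38 in members and 0.61 in the Leydig class), Ogn (-0.55 in members and 0.41 in the Leydig class), Ctsl (-0.67 in members and 0.62 in the Leydig class), Akap4 (-0.36 in members and 0.69 in the Leydig class). Higher in KO members but lower in the Leydig class of KO were Tnp1 (0.97 and -0.37), Cst3 (0.64 and -0.16), Cks1b (3.43 and -0.56), Fabp3 (0.42 and -0.07), Star (2.5 and -0.52), Prm2 (0.14 and -0.11), Gstm2 (0.34 and -0.13), Tnp2 (0.67 and -0.38), Cypt4 (0.27 and -1.07), Hmgb4 (1.03 and -0.24). Prm2, Tnp1, Tnp2, Hmgb4, Cypt4 and Akap4 are transcripts of spermatids, Star, Fabp3 and Gstm2 are Leydig markers, and Ctsl is a Sertoli marker.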

How the results depend on the processing

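No paired analysis was possible because each genotype has 1 library. The ratio of member shares was between 2.93 and 4.4 under the other settings, and turned to 0.505 with somatic barcodes as denominator. The contractile share was 0% in both genotypes with at least 4 of the 7 genes, 0% in WT without barcodes over 5% spermatid genes, and 20.5% in KO with the contractile barcodes outside the rule (18.8% in WT).

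Genes at least 2-fold higher in KO numbered 285 of 2619 tested in the report. With 4 of 7 genes the count was 189 of 935, 37 of them among the 285. It was 118 of 823 after thinning, 166 of 1528 in core members and 846 of 5497 at 20 UMIs. At 100 UMIs it was 109 of 1311, with 1 UMI in each genotype 1340 of 11227 and at 3-fold 118 of 2619. Genes lower numbered 117 of 2619 in the report and 78 of 935 with 4 of 7 genes, 11 of them among the 117. They numbered 54 of 823 after thinning, 353 of 5497 at 20 UMIs and 43 of 1311 at 100 UMIs. With 1 UMI in each genotype 2419 of 11227 were lower. Of 2619 genes, 17 were lower without the top barcode of each gene and 9 at 3-fold. Thinning and higher UMI minimums test fewer genes, and other causes were not tested. Leaving out genes over 5 times higher in the remaining barcodes removed none.

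With 4 of 7 genes the log2 ratio of Des was -1.68, Dusp1 -0.014, H2-K1 -0.15 and Sun3 1.67. Thinning turned Sun3 to 1.17 and Fam71a to 0.029, core members turned Des to -0.29, and without its top barcode Mfap4 was 0.0061. Of the remaining log2 ratios of named genes, 690 stayed within the reported interval and 76 moved outside it. For list medians 98 stayed and 45 moved. Core members, the spermatid limit, the top barcode, lists without rule genes and the barcodes outside the rule were alternatives chosen after seeing the data. Depth limits WT most, where 1 UMI over 14 barcodes decides low genes.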

Other observations

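The 12 KO barcodes on the matrix side with fewer than 10 Dcn UMIs carried RNA of several other cells. They held 664 UMIs of Lcn2 and 344 of Ptgds, each in 10 of the 12 barcodes, and 86 of Insl3, in 8. One barcode gave 61 UMIs of Ly6c1 and 14 of Emcn, markers of endothelium, and 1 barcode gave 13 of the 14 UMIs of Stra8. Rgs5, a pericyte gene, had 14 UMIs, all in 1 barcode.

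In the 15 contractile barcodes outside the rule, Rgs5 stood at 635 CPM and Notch3 and Mcam at 16.1 each, and Des, Cnn1 and Lmod1 at 466, 321 and 474. Ly6c1 was at 450 there, with 0 UMIs in WT and 56 in KO.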
